A study of Mus musculus with 6 samples.

Results

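UDP-glucuronosyltransferases (UGTs) and cytosolic sulfotransferases (SULTs) were followed in 6 liver tumours. The members are the genes of the deposited symbol table whose symbols start with Ugt1 to Ugt3 or Sult1 to Sult6, pseudogene symbols left out. They numbered 33 of 33296 genes with a count: 9 Ugt1, 9 Ugt2, 2 Ugt3 and 13 Sult genes. UGTs sit in the endoplasmic reticulum and attach glucuronic acid from UDP-glucuronic acid to bilirubin, steroids, bile acids and drugs. SULTs work in the cytosol and attach sulfate from the donor PAPS to phenols, steroids and bile acids. Both reactions make the product more soluble in water, and the liver is a main site of both. Sorafenib, a kinase inhibitor used in hepatocellular carcinoma, is itself glucuronidated in humans, mainly by UGT1A9.

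TSDP tumours came from 3 mice that received, by vein, a nanoparticle carrying both DNIC, a nitric oxide donor, and sorafenib. They had 6 injections from day 10 to day 23. Control tumours came from 3 mice labelled untreated, and whether these received an empty carrier was not given. All 6 were male C3H mice of 6 to 8 weeks with 1000000 cells of HCA-1 placed beneath the liver surface, and tumours were taken on day 24. HCA-1 is a hepatocellular carcinoma line of the mouse. The model is 1 cell line in a host that keeps its own liver, so a tumour sample can hold host hepatocytes. The libraries held 36629665, 36586150 and 36376925 counts in TSDP 1, 2 and 5, and 32533852, 32130808 and 38953397 in Control 3, 4 and 5.

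The libraries differed widely in genes of hepatocytes, and Control 3 stood apart. Levels are given as CPM, counts per 1000000 on library sizes scaled by TMM. The summed level of 17 hepatocyte markers was 37800, 73060 and 23877 CPM in TSDP 1, 2 and 5, against 131, 28508 and 4557 CPM in Control 3, 4 and 5. Albumin (Alb) was at 17147, 32438 and 11314 CPM in the TSDP libraries and at 62.7, 10350 and 1993 CPM in the Control libraries. Transthyretin (Ttr) and the liver factor Hnf4a showed the same pattern, with 148, 275 and 100.3 CPM of Hnf4a in TSDP and 0.587, 85.3 and 13.4 CPM in Control libraries. All 17 markers had positive log2 fold changes (TSDP over Control), with a median of 2.51, and none was at 0 counts in any library. The summed marker levels of the groups overlapped, since Control 4 lay above TSDP 5, while the albumin levels did not overlap. Fewer hepatocytes and less RNA per hepatocyte cannot be told apart in such bulk samples, so the enzymes are also given per marker level.

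Most UGT and SULT genes stood at higher levels in TSDP tumours than in Control tumours, and 0 passed the test after adjustment. The quasi-likelihood test of edgeR, with Benjamini-Hochberg adjustment over 17423 genes, called 0 genes in each direction at an adjusted p under 0.05, a background of 0%. Of the 33 members 23 passed the filter on low counts and were tested, and their adjusted p ran upward from 0.326. Of these 23, 20 had a positive log2 fold change and 3 a negative one, where 47.3% of all tested genes were positive. At an unadjusted p under 0.05, 14 members were higher and 0 lower in TSDP, against a background of 8.6% of genes higher and 4.75% lower. With 1 library left out that count was 5 without Control 5, 7 without TSDP 1, 5 without TSDP 2 and otherwise up to 21. DESeq2 called 5 members, all higher in TSDP (Ugt2b38, Sult1b1, Sult2a8, Sult5a1 and Ugt2b37, the last outside the 23), against 3.1% of its genes higher and 0.429% lower. The median log2 fold change over the 23 was 2.64, beside -0.02 over all genes tested. The lowest TSDP library lay above the highest Control library for 18 members, against a background of 13%, and the reverse held for 0 members, against 8.76%. Of the 17 hepatocyte markers 11 were separated in the same direction and 0 in the reverse, and 2 were higher at an unadjusted p under 0.05. Since a gene low in both groups was not tested, the edgeR counts describe the 23 tested members and not the 33. Ugt2b38 and Sult5a1, which are among the 14 and the 18, passed the filter only through their TSDP counts, with every Control library below its cutoff. The filter needs as many libraries above the cutoff as a group holds. Ugt1a9, also among the 14 and the 18, had 1, 19 and 2 counts in Control 3, 4 and 5, and could not have passed on these. Most of the others among the 14 lay below the cutoff in Control 3, so their passing also needed TSDP libraries.

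**Figure D1:**
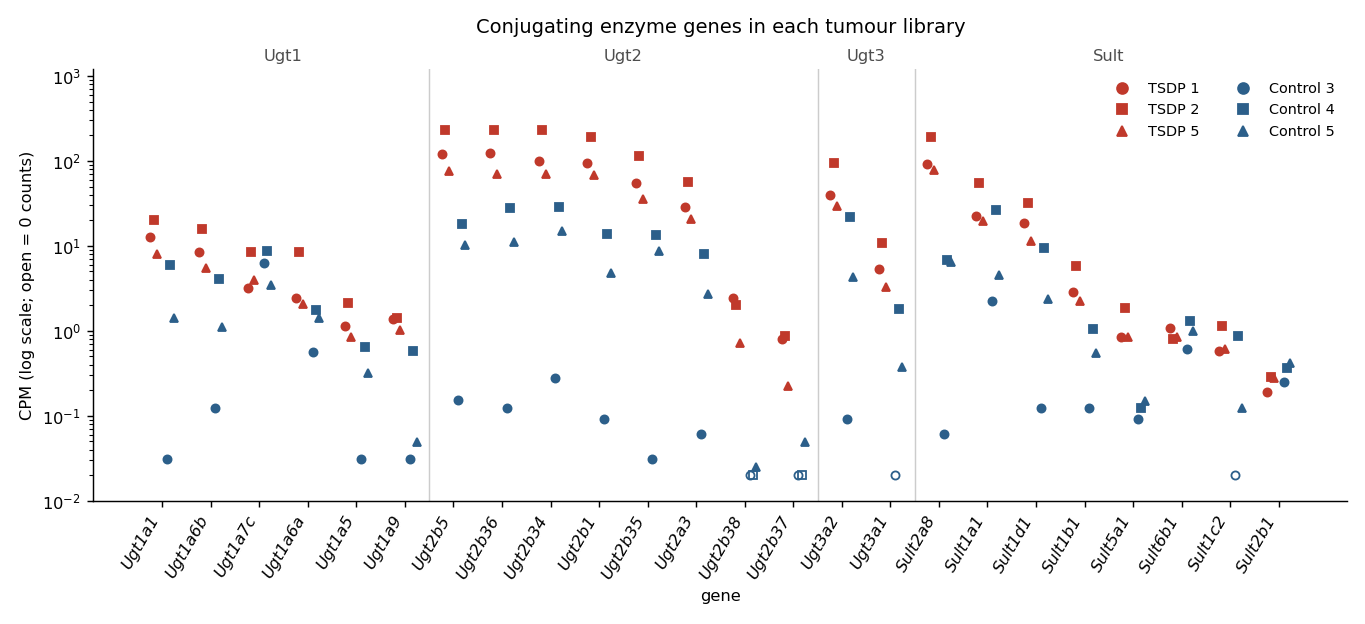
CPM (log axis) of the 23 tested members and Ugt2b37 in each library, TSDP libraries in red to the left and Control libraries in blue to the right of each gene, with open symbols for 0 counts. TSDP 2 is the highest library for most Ugt2 genes, Control 3 (blue circles) lies far below the others for most members, and Ugt1a7c, Sult1a1, Sult1c2, Sult6b1 and Sult2b1 show overlapping groups.

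The Ugt1 genes lie in 1 cluster on chromosome 1. In it, each gene has its own first exon, which encodes the part that binds the substrate, joined to exons that all of them share. In the GENCODE transcripts of this build (GRCm38), 1313 bases at the junction and beyond were identical in all 9 Ugt1a genes. The stretch across that junction is shown for 4 of them: the 30 bases of the own exon are in lower case and the first 30 shared bases in capitals.
Ugt1a1: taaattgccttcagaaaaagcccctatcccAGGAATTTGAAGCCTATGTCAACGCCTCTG
Ugt1a9: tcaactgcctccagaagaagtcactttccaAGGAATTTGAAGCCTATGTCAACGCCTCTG
Ugt1a6a: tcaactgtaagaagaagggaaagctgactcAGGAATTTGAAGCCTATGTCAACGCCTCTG
Ugt1a7c: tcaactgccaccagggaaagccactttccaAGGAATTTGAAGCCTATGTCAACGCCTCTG
Reads that lie wholly in the shared part cannot be assigned to 1 gene. Of the annotated exon bases, 82.7% of Ugt1a1 and between 50.3% and 64.3% of the other 8 were shared with another gene, so the counts of single Ugt1a genes are uncertain. The annotated last exon of Ugt1a7c also runs to position 88220002, past those of the other 8 genes, which end between 88218997 and 88219004. Reads in this tail would count for Ugt1a7c, whichever first exon their transcript began with. Ugt1a7c has 1915 exon bases of no other gene, with 913 bases before the shared part, against 385 unshared bases for Ugt1a1.

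Of the 6 Ugt1 genes tested, 5 were higher in every TSDP library than in every Control library, and Ugt1a7c was not. Ugt1a1, the enzyme that conjugates bilirubin, was at 12.6, 20.0 and 7.95 CPM in TSDP 1, 2 and 5, against 0.0309, 5.92 and 1.42 CPM in Control 3, 4 and 5. The groups did not overlap, but Control 4 lay close to TSDP 5, and the log2 fold change was 2.46 ± 1.21 (SE, adjusted p = 0.428 in edgeR). Ugt1a9, whose human counterpart conjugates sorafenib, was at 1.37, 1.42 and 1.03 CPM in TSDP and 0.0309, 0.583 and 0.0497 CPM in Control libraries. These are low levels, of 49 counts in TSDP 2 and 19 counts in Control 4, and the log2 fold change was 2.54 ± 0.92 (SE, adjusted p = 0.354 in edgeR). With 1 and 2 counts in Control 3 and Control 5, Ugt1a9 could not have passed the filter on its Control libraries. Ugt1a6b and Ugt1a6a belong to the branch that acts on small planar phenols, and their last 30 bases before the junction were identical. Ugt1a6b was at 8.41, 15.7 and 5.52 CPM in TSDP and at 0.124, 4.08 and 1.12 CPM in Control libraries. Ugt1a6a was at 2.46, 8.55 and 2.09 CPM in TSDP and at 0.556, 1.75 and 1.42 CPM in Control libraries, so TSDP 2 stood far above the rest. Their log2 fold changes were 2.48 ± 1.04 and 1.81 ± 0.69 (SE), with edgeR adjusted p of 0.378 and 0.365. Without Control 4 the log2 fold change of Ugt1a6b was 3.95, that of Ugt1a1 4.18 and that of Ugt1a9 4.84, and without TSDP 2 that of Ugt1a6a was 0.86. Ugt1a5 was low, with a highest level of 2.11 CPM in TSDP 2 and of 0.644 CPM in Control 4.

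Ugt1a7c was the Ugt1 gene with a negative log2 fold change, at -0.25 ± 0.49 (SE, adjusted p = 0.841 in edgeR). It was at 3.18, 8.52 and 3.93 CPM in TSDP 1, 2 and 5, against 6.30, 8.80 and 3.48 CPM in Control 3, 4 and 5, with the groups mixed. Without Control 4 the log2 fold change was 0.09 and without TSDP 1 it was 0.01. Control 3, which had 1 count of Ugt1a1, had 204 counts of Ugt1a7c. Ugt1a7c therefore made up 10.9%, 15.1% and 18.4% of the summed Ugt1 level in TSDP 1, 2 and 5, against 88.7%, 40.4% and 43.9% in Control 3, 4 and 5. Ugt1a1 made up 43.1%, 35.5% and 37.2% in TSDP and 0.435%, 27.1% and 17.9% in Control libraries. Neither share overlapped between the groups. Shares here are of CPM, with no adjustment for gene length or for the longer last exon of Ugt1a7c. Whether the Ugt1a7c counts came from its own first exon or from that tail was not tested, so its level and shares may include other Ugt1a transcripts. The summed Ugt1 level was 29.3, 56.4 and 21.4 CPM in TSDP and 7.10, 21.8 and 7.93 CPM in Control libraries, and here Control 4 lay above TSDP 5. Ugt1a10, Ugt1a8 and Ugt1a2 had 7, 1 and 6 counts over all 6 libraries and were not tested.

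The Ugt2 genes, which conjugate steroids, bile acids and many drugs, stood far higher in TSDP tumours. Their summed level was 522, 1053 and 343 CPM in TSDP 1, 2 and 5, and 0.741, 109.8 and 52.7 CPM in Control 3, 4 and 5. The lowest TSDP library was above the highest Control library, and the ratio of the group means was 11.7. The 7 tested Ugt2 genes were separated in the same way and had an unadjusted p under 0.05, though Ugt2b38 passed the filter only through its TSDP counts. The log2 fold changes of the other 6 lay between 3.19 and 4.22, and edgeR adjusted p was between 0.326 and 0.373 over the 7, whose median was 3.43. With a minimum count of 50 Ugt2b38 was not tested, and Ugt2b1, Ugt2b5 and Ugt2a3 were the 3 of 6 with an unadjusted p under 0.05.

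Ugt2b1, an enzyme with broad substrates, was at 94.5, 189.7 and 67.9 CPM in TSDP and at 0.0927, 14.0 and 4.77 CPM in Control libraries. Its log2 fold change was 4.22 ± 1.31 (SE, adjusted p = 0.334 in edgeR), and each TSDP library exceeded each Control library. No 50-base stretch of its exons was found in another gene. Ugt2b5 was at 119, 229 and 77.0 CPM in TSDP and at 0.154, 18.0 and 10.2 CPM in Control libraries, with a log2 fold change of 3.91 ± 1.29 (SE, adjusted p = 0.334 in edgeR). Of its 50-base stretches 41.7% were also found in other genes, so its level is uncertain. Ugt2b36 was at 123, 232 and 70.3 CPM in TSDP and at 0.124, 28.2 and 11.3 CPM in Control libraries, and Ugt2b34 was at 98.5, 228 and 70.8 CPM against 0.278, 28.3 and 15.0 CPM. Both had Control 4 as the highest Control library and TSDP 5 as the lowest TSDP library. Ugt2b35 was at 55.6, 113 and 35.2 CPM in TSDP and at 0.0309, 13.4 and 8.80 CPM in Control libraries. Ugt2a3, whose human counterpart conjugates bile acids, was at 28.4, 57.2 and 20.5 CPM in TSDP and at 0.0618, 8.03 and 2.68 CPM in Control libraries. Per kilobase of exon, the mean TSDP levels were 76.3 CPM for Ugt2b5, 68.9 for Ugt2b36, 45.6 for Ugt2b1, 30.7 for Ugt2b34, 20.2 for Ugt2b35 and 16.7 for Ugt2a3.

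Ugt2b38 and Ugt2b37 were nearly at 0 in Control libraries. Ugt2b38 had 88, 70 and 26 counts in TSDP 1, 2 and 5 and 0, 0 and 1 count in Control 3, 4 and 5. The ratio of summed counts was 181, with an exact 95% interval of 32.1 to 7187 that covers counting error only. Its fitted log2 fold change of 7.06 ± 0.90 (SE, adjusted p = 0.326 in edgeR) rests on that 1 Control count. Ugt2b37 had 29, 30 and 8 counts in TSDP and 0, 0 and 2 counts in Control libraries, a ratio of 33.0 with an exact 95% interval of 8.77 to 278, and did not pass the filter. Control 4 had 0 counts of both, although its other Ugt2 genes reached 28.3 CPM. Of their 50-base stretches, 37.4% and 18.3% were found in other genes, so these counts may include reads of close relatives. Ugt2a1 had 1 count over all libraries.

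Within Ugt2 the shares of some single genes also differed. Ugt2b1 made up 18.1%, 18.0% and 19.8% of the summed level in TSDP 1, 2 and 5, against 12.5%, 12.7% and 9.05% in Control 3, 4 and 5. Ugt2b34 made up 18.9%, 21.7% and 20.7% in TSDP against 37.5%, 25.8% and 28.4% in Control libraries. Neither pair of ranges overlapped, though the Control 3 shares rest on 3 counts of Ugt2b1 and 9 counts of Ugt2b34. The share of Ugt2b5 was also higher without overlap, at 22.9%, 21.8% and 22.5% in TSDP against 20.8%, 16.4% and 19.3% in Control libraries. Those of Ugt2b36, Ugt2b35 and Ugt2a3 overlapped between the groups.

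**Figure D2:**
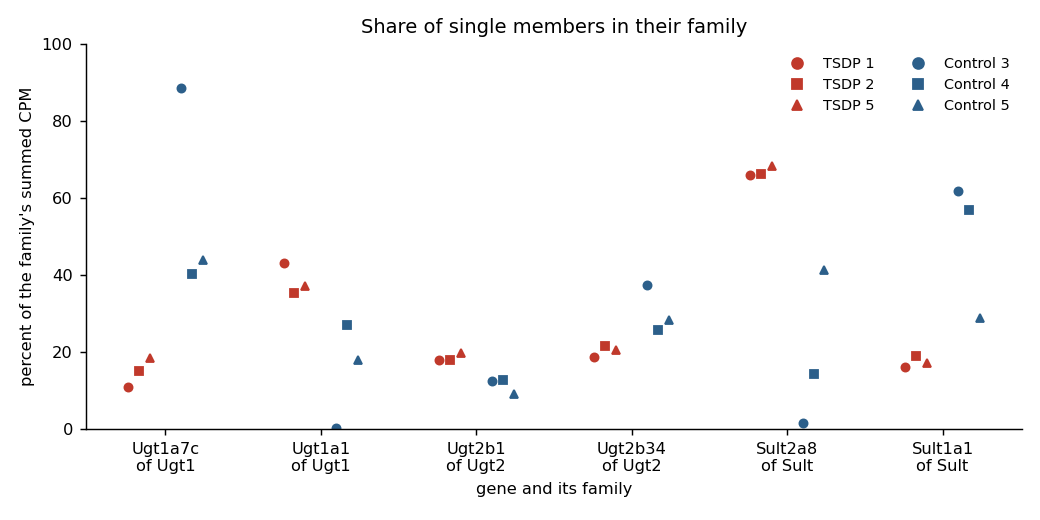
Share of 6 genes in the summed CPM of their own family (percent, linear axis from 0 to 100) in each library, TSDP in red on the left and Control in blue on the right of each gene. Ugt1a7c, Ugt2b34 and Sult1a1 hold smaller shares in all 3 TSDP libraries, and Ugt1a1, Ugt2b1 and Sult2a8 larger ones.

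The 9 Ugt2 genes lie in 1 cluster on chromosome 5, and 29 of the 33 members had a promoter in the RefSeq table (GRCm38.p6), which spans 250 bases before to 50 bases after each start. The 120 bases before the start are shown for 5 Ugt2b genes that share an element and for Ugt2b1 and Ugt2b34, which have no exact match to it. The element, GTTATANTTTAAC, was the longest stretch with 1 variable inner position held by at least 5 of the Ugt2b promoters. Ugt2b1 (gttatatgttaac) and Ugt2b34 (gttacactttaac) hold a similar stretch that differs from it in 1 fixed letter, so presence here means an exact match. In capitals are this element and, where present, AGGTCA, the half-site of nuclear receptors. All 7 are written 5′ to 3′ along their gene, at chr5:87140341-87140460 (Ugt2b5), chr5:87092556-87092675 (Ugt2b36), chr5:87254789-87254908 (Ugt2b37), chr5:87424204-87424323 (Ugt2b38), chr5:86926504-86926623 (Ugt2b1) and chr5:86906938-86907057 (Ugt2b34) on the minus strand, and chr5:87000740-87000859 (Ugt2b35) on the plus strand.
Ugt2b5: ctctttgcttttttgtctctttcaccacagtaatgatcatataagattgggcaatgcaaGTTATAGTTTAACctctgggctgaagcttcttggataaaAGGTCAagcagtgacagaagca
Ugt2b36: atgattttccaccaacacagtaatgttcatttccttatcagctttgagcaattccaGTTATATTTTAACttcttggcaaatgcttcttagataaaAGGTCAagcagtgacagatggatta
Ugt2b37: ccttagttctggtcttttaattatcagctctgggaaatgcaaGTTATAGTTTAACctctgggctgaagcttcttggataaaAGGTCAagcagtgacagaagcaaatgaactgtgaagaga
Ugt2b38: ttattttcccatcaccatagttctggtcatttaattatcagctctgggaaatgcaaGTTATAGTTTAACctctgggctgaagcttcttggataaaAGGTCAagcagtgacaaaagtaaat
Ugt2b35: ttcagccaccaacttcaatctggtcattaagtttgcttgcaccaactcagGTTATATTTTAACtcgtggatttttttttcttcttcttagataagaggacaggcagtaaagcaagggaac
Ugt2b1: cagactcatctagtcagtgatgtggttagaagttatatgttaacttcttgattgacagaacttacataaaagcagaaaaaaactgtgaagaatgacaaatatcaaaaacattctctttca
Ugt2b34: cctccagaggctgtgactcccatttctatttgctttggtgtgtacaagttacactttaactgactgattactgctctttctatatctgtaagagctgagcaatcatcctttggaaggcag
Searched on both strands, GTTATANTTTAAC was found in 6 of 32851 promoters, 0.0183%, and 5 of these were the Ugt2b promoters shown, with its first base between positions -78 and -61. Its letters were derived from these promoters, so that count is a description of the 5 sequences. GTTAAT, a half-site of the liver factor HNF1 that shares letters with the element but does not match inside it, was found in 8 of the 29 member promoters and in 7.1% of all promoters. AGGTCA was found in 10 of the 29 and in 16.3% of all, and GCGTG, the core to which the aryl hydrocarbon receptor binds, in 5 of the 29 and in 32.4% of all. A match describes the letters only. The element was present in Ugt2b37 and Ugt2b38, which had 0 counts in Control 4, as well as in Ugt2b36 and Ugt2b35, which had counts there.

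The pair of Ugt3 genes on chromosome 15 stood higher in each TSDP library than in each Control library. Human UGT3A1 and UGT3A2 use sugars other than glucuronic acid. Ugt3a2 was at 40.1, 94.3 and 29.5 CPM in TSDP and at 0.0927, 22.0 and 4.25 CPM in Control libraries. Its log2 fold change was 2.64 ± 1.37 (SE, adjusted p = 0.444 in edgeR), with Control 4 close below TSDP 5. Ugt3a1 was at 5.37, 11.0 and 3.32 CPM in TSDP and at 0, 1.81 and 0.373 CPM in Control libraries, with a log2 fold change of 3.17 ± 1.22 (SE, adjusted p = 0.365 in edgeR). Without Control 4 these were 4.62 for Ugt3a2 and 5.03 for Ugt3a1.

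Among the sulfotransferases, Sult2a8 had the highest log2 fold change. Sult2a8, which sulfates bile acids in mouse liver, was at 91.4, 189.8 and 77.4 CPM in TSDP 1, 2 and 5, against 0.0618, 6.75 and 6.46 CPM in Control 3, 4 and 5. Every TSDP library was far above every Control library, and the log2 fold change was 4.75 ± 1.23 (SE, adjusted p = 0.326 in edgeR, unadjusted p = 0.00743). Sult2a8 made up 66.1%, 66.3% and 68.3% of the summed Sult level in TSDP and 1.69%, 14.4% and 41.3% in Control libraries. Sult1a1, which sulfates simple phenols, made up 16.2%, 19.0% and 17.3% in TSDP and 61.9%, 57.0% and 28.9% in Control libraries. Its own level was 22.5, 54.4 and 19.6 CPM in TSDP and 2.26, 26.7 and 4.52 CPM in Control libraries. These groups overlapped, since Control 4 exceeded TSDP 1 and TSDP 5, and the log2 fold change was 1.53 ± 0.94 (SE, adjusted p = 0.502 in edgeR). It was 3.24 without Control 4 and 0.90 without TSDP 2. The summed Sult level was 138, 286 and 113 CPM in TSDP and 3.65, 46.8 and 15.7 CPM in Control libraries, a ratio of means of 8.14.

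Sult5a1 was low in all libraries. It was at 0.849, 1.88 and 0.837 CPM in TSDP and at 0.0927, 0.123 and 0.149 CPM in Control libraries, which are 31, 65 and 30 counts against 3, 4 and 6 counts. Control 3 lay close to the other Control libraries for this gene, unlike for Sult2a8. The log2 fold change was 3.24 ± 0.48 (SE, adjusted p = 0.326 in edgeR, unadjusted p = 0.000432). Like Ugt2b38, Sult5a1 passed the filter on low counts only through its TSDP counts, so a higher level in TSDP was a condition of its being tested. Sult1b1, which sulfates thyroid hormones, was at 2.88, 5.81 and 2.23 CPM in TSDP and at 0.124, 1.04 and 0.547 CPM in Control libraries, without overlap, with a log2 fold change of 2.66 ± 0.74 (SE, adjusted p = 0.326 in edgeR). Sult1d1, which sulfates catecholamines, was at 18.7, 31.6 and 11.3 CPM in TSDP and at 0.124, 9.38 and 2.36 CPM in Control libraries, again without overlap. Its log2 fold change was 2.38 ± 1.17 (SE, adjusted p = 0.427 in edgeR), and 4.01 without Control 4.

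The groups of 3 further tested Sult genes overlapped. Sult2b1, which sulfates cholesterol and pregnenolone and is best known from skin, was at 0.192, 0.289 and 0.279 CPM in TSDP and at 0.247, 0.368 and 0.423 CPM in Control libraries. Its log2 fold change was -0.45 ± 0.35 (SE, adjusted p = 0.587 in edgeR). Sult6b1 was at 1.07, 0.809 and 0.837 CPM in TSDP and at 0.618, 1.29 and 0.994 CPM in Control libraries, with a log2 fold change of -0.10 ± 0.35 (SE, adjusted p = 0.918 in edgeR), or 0.16 without Control 4. Sult1c2 ranged from 0.575 to 1.13 CPM in TSDP and from 0 to 0.859 CPM in Control libraries. Its log2 fold change was 1.24 ± 1.09 (SE, adjusted p = 0.628 in edgeR), and with 1 library left out it ran from 0.66 without Control 3 to 3.46 without Control 4, when its groups no longer overlapped. Sult1e1, which inactivates estrogens, had 7, 3 and 2 counts in TSDP and 0, 6 and 1 counts in Control libraries. Sult1e1, Sult2a7, Sult4a1, Sult6b2 and Sult1c1 were not tested. A further 9 genes of these families, Sult2a1 to Sult2a6, Sult3a1, Sult3a2 and Ugt2a2, had 0 counts in all 6 libraries, which allows a level of up to 0.0927 CPM in Control 3, the library with the smallest scaled size (3 counts). Of these, Sult2a1 and Sult3a1 are known as genes of female mouse liver, and the hosts here were male.

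**Figure D3:**
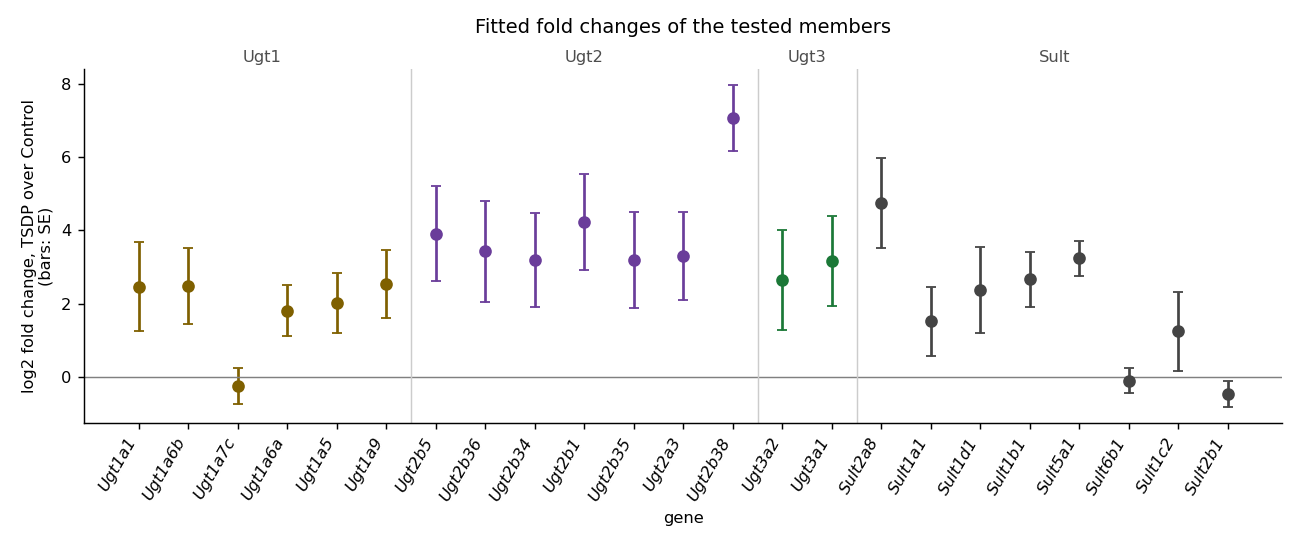
Fitted log2 fold change (TSDP over Control) of the 23 tested members with its SE as bars, grouped by family and, within a family, from the highest to the lowest mean TSDP level. All 7 Ugt2 genes lie between 3.19 and 7.06, while Ugt1a7c, Sult6b1 and Sult2b1 lie below 0, and 0 genes passed the adjusted threshold.

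The enzymes that make the 2 donor molecules differed far less than the transferases. Of the 6 genes for supply and transport of UDP-glucuronic acid, 5 had a positive log2 fold change, and the median was 0.41. Ugdh, which makes UDP-glucuronic acid, was at 408, 384 and 461 CPM in TSDP and at 495, 385 and 511 CPM in Control libraries, and the groups overlapped (log2 fold change -0.15 ± 0.17 SE, edgeR adjusted p = 0.703). Unadjusted p values under 0.05 were found for 3 of the 6, all higher in TSDP, against a background of 8.6% of genes higher. They were Ugp2, which makes UDP-glucose (log2 fold change 0.50), and the nucleotide sugar transporters Slc35d1 (1.24) and Slc35d2 (0.99). Of the 8 tested genes for supply of PAPS, 6 were positive, with a median of 0.08. Papss2, a PAPS synthase, was at 57.4, 63.0 and 69.4 CPM in TSDP and at 73.7, 59.1 and 45.3 CPM in Control libraries. Slc26a1, a sulfate transporter (2.63), and Suox, which makes sulfate from sulfite (0.58), had an unadjusted p under 0.05. They are 2 of the 8, against the same background of 8.6% higher. Impad1, a phosphatase, had the smallest p among the negative ones (-0.19). The 3 tested genes for hydrolysis of conjugates, among them the glucuronidase Gusb (0.25) and the sulfatase Arsb (-0.13), had a median of 0.14 and 0 had an unadjusted p under 0.05. None of these 17 genes was called after adjustment, and here too the background was 0%.

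Transporters of conjugates differed among themselves. Of 8 tested, 7 were positive, with a median log2 fold change of 1.87, where 47.3% of all tested genes were positive. An unadjusted p under 0.05 was found for 4, all higher in TSDP, against a background of 8.6% higher, and an adjusted one for 0. Slco1a1, an uptake carrier of hepatocytes, was at 72.7, 192 and 63.0 CPM in TSDP and at 0, 16.0 and 5.05 CPM in Control libraries. Abcg2, an exporter of sulfates, was at 46.5, 51.4 and 29.2 CPM in TSDP and at 24.6, 20.6 and 17.8 CPM in Control libraries, without overlap. Slc10a1, the bile acid uptake carrier, had a log2 fold change of 3.07. Abcc4, another exporter, was the negative one (log2 fold change -0.22). Abcc3, which exports glucuronides to the blood, was at 123, 209 and 77.4 CPM in TSDP and at 13.5, 71.7 and 22.4 CPM in Control libraries, with a log2 fold change of 1.93 ± 0.69 (SE, adjusted p = 0.349 in edgeR). Abcc2, which exports them to bile, was at 276, 358 and 297 CPM in TSDP and at 298, 180.4 and 220.5 CPM in Control libraries, so Control 3 had as much of it as TSDP 5. Of 12 regulators of these genes, 9 were positive, with a median of 1.82. Of these, 3 had an unadjusted p under 0.05, against a background of 8.6% higher: Nr1i3 (2.67), Rora (1.60) and Esr1 (0.88). The drug sensors Nr1i2 (PXR) and Nr1i3 (CAR) were at 12.5, 21.4 and 7.23 CPM and at 5.64, 15.0 and 4.21 CPM in TSDP, against 0.124, 6.01 and 0.920 CPM and 0.0618, 2.94 and 0.895 CPM in Control libraries. Ahr, Arnt and Nfe2l2, which respond to aryl hydrocarbons and oxidative stress in many cell types, had log2 fold changes of -0.05, -0.18 and 0.08.

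The levels of most members followed albumin across the libraries. From low to high, the order by albumin was Control 3, Control 5, Control 4, TSDP 5, TSDP 1 and TSDP 2. The same order held for 16 of the 23 tested members, 5 Ugt1, 6 Ugt2, 2 Ugt3 and 3 Sult genes, against a background of 5.57% of all tested genes. Albumin was taken as the measure of order after the values had been seen. The 7 members that did not follow it were Ugt1a7c, Ugt2b38, Sult1a1, Sult1c2, Sult2b1, Sult5a1 and Sult6b1.

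**Figure D4:**
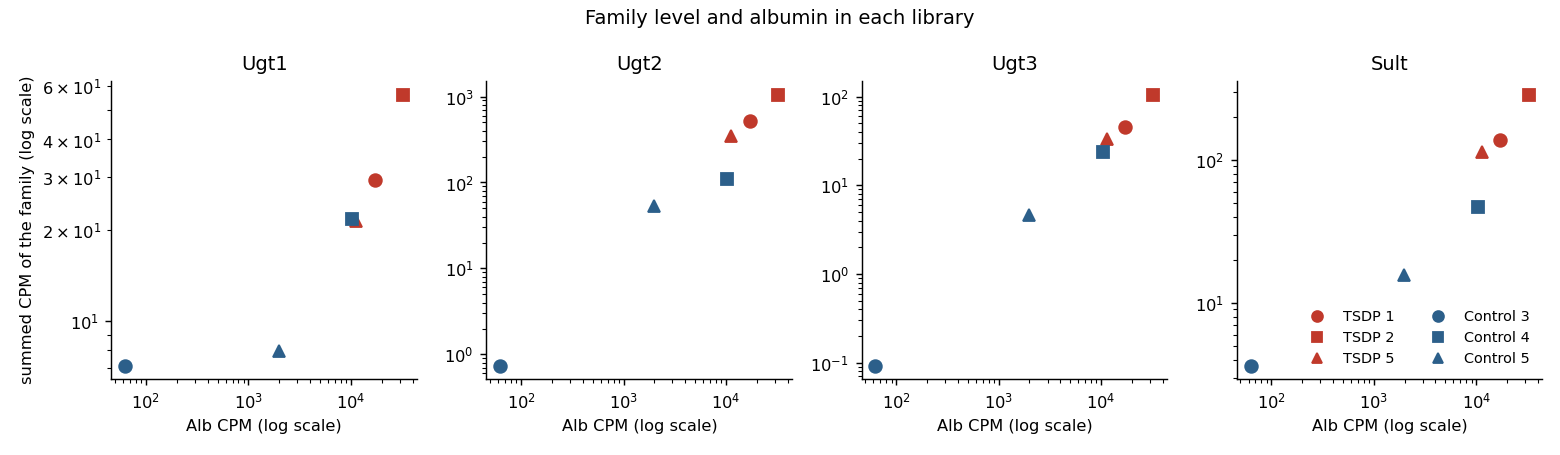
Summed CPM of each of the 4 families against albumin CPM (both axes logarithmic, 1 point per library, TSDP red and Control blue). Ugt2, Ugt3 and Sult sums increase with albumin from Control 3 to TSDP 2, and for Ugt1 Control 4 (21.8 CPM) and TSDP 5 (21.4 CPM) lie at nearly the same point.

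Set against hepatocyte markers, part of the difference remained for Ugt2, Ugt3 and Sult2a8. Per 1000 CPM of the 17 markers, the Ugt2 sum was 13.8, 14.4 and 14.3 CPM in TSDP 1, 2 and 5, against 5.66, 3.85 and 11.6 CPM in Control 3, 4 and 5. The Ugt3 sum was 1.20, 1.44 and 1.38 CPM in TSDP and 0.708, 0.835 and 1.01 CPM in Control libraries. The Ugt1 sum overlapped, at 0.775, 0.772 and 0.896 CPM in TSDP and 54.3, 0.765 and 1.74 CPM in Control libraries, and so did the Sult sum, at 3.66, 3.92 and 4.75 CPM against 27.8, 1.64 and 3.44 CPM. The ratios of Control 3 rest on a marker sum of 131 CPM, and those of Ugt2 and Ugt3 also on few member counts.

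Among single genes, 8 of 23 were higher per marker level in every TSDP library, against a background of 0.74% of genes, and 4 were lower, against 23.8%. The 8 were Ugt2b1, Ugt2b5, Ugt2b36, Ugt2b38, Ugt2a3, Ugt3a1, Ugt3a2 and Sult2a8. Of these, Ugt2b38 passed the filter only through its TSDP counts, with 0, 0 and 1 count in Control 3, 4 and 5. Of the 17 hepatocyte markers themselves, which form the denominator, 5 were higher in this sense and 1 lower. Ugt2b1 was at 2.50, 2.60 and 2.84 CPM per 1000 CPM of markers in TSDP and at 0.708, 0.491 and 1.05 CPM in Control libraries, a narrow range in TSDP. Sult2a8 was at 2.42, 2.60 and 3.24 CPM in TSDP and at 0.472, 0.237 and 1.42 CPM in Control libraries. Ugt1a1 was at 0.334, 0.274 and 0.333 CPM in TSDP and at 0.236, 0.208 and 0.311 CPM in Control libraries, and these overlapped. The 4 lower ones were Ugt1a7c, Sult1a1, Sult2b1 and Sult6b1, and for Sult1a1 the values were 0.595, 0.745 and 0.821 CPM in TSDP and 17.2, 0.936 and 0.993 CPM in Control libraries. With albumin alone as denominator the counts were again 8 and 4, against backgrounds of 0.66% and 62.7%. With the mean log2 marker level they were 8 and 4, against 0.522% and 63.4%, and without Control 3 they were 8 and 5. These alternatives were chosen after seeing the data.

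**Figure D5:**
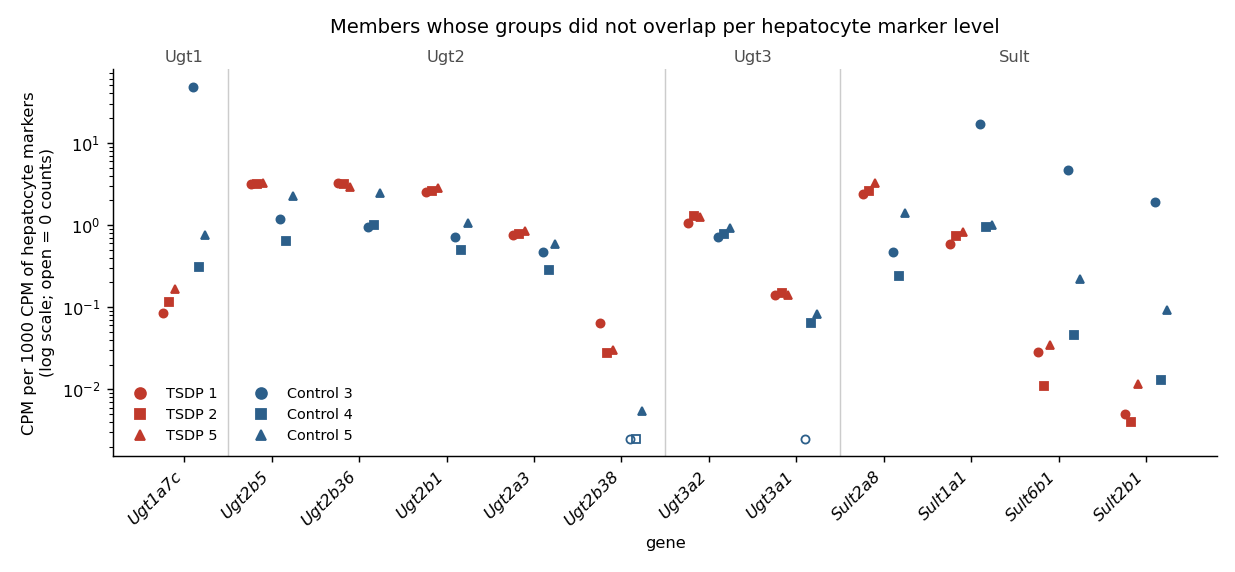
CPM per 1000 CPM of 17 hepatocyte markers (log axis) for the 12 members whose groups did not overlap on that scale, TSDP in red on the left and Control in blue on the right of each gene, with open symbols for 0 counts. The 8 Ugt2, Ugt3 and Sult2a8 genes lie higher in TSDP, and Ugt1a7c, Sult1a1, Sult6b1 and Sult2b1 lie lower, with Control 3 the highest point of each of these 4.

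With the mean log2 level of the hepatocyte markers as a covariate in the edgeR fit, 7 members had an unadjusted p under 0.05, all higher in TSDP, against a background of 2.8% higher and 2.8% lower, and 0 were called after adjustment. Ugt2b1 had a log2 fold change of 1.92 ± 0.31 (SE, adjusted p = 0.365 in edgeR) in that fit, Sult2a8 2.58 ± 0.78 (SE, adjusted p = 0.78 in edgeR) and Sult5a1 2.64 ± 0.73 (SE, adjusted p = 0.74 in edgeR). The others were Ugt2b38, Ugt2b5, Ugt2a3 and Sult1b1. Of the 7, Ugt2b38 and Sult5a1 passed the filter only through their TSDP counts. Ugt1a1 stood at 0.24 ± 0.29 and Ugt3a2 at 0.17 ± 0.20 (SE). The median log2 fold change in that fit was 0.42 for Ugt1, 1.03 for Ugt2, 0.43 for Ugt3 and 0.17 for Sult genes. As lists, markers of other cell types differed less: the summed cholangiocyte markers were 5390, 2162 and 7371 CPM in TSDP and 4897, 3462 and 8928 CPM in Control libraries, with 2 of 6 positive. Most of that sum was Spp1, at 4689 CPM in Control 3. Epcam, Krt7 and Cftr were lowest in Control 3, while Krt19, Sox9 and Spp1 were not. Epcam was at 8.65, 7.92 and 4.38 CPM in TSDP 1, 2 and 5, against 0.432, 13.5 and 3.31 CPM in Control 3, 4 and 5. The macrophage, endothelial and fibroblast lists, of 6 genes each, had 5, 6 and 6 positive log2 fold changes, with medians of 0.25, 0.41 and 0.24. Of all tested genes 47.3% were positive. Of the 6 endothelial markers 3 were higher in TSDP without overlap between the groups, against a background of 13%. Kdr (1.01) and Tek (1.21), both receptors of growth factors, had an unadjusted p under 0.05, against a background of 8.6% higher. The part of these cell types in the results was not tested. Of the intestine and kidney markers, Fabp2, which liver also makes, was higher at an unadjusted p under 0.05, and Umod and Slc34a1 had 1 count each over all libraries.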

How the data were processed

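RNA of 6 tumours was sequenced after mRNA library preparation (KAPA), as the labels' protocols state. The submitters' processing notes name featureCounts 2.0.0 and HISAT2 2.1.0, beside Trimmomatic 0.38, CASAVA and 2 quality tools (FastQC, MultiQC). Not given in the sources used here are the build, the annotation, the strand setting and how reads that overlap several genes were counted. The deposited table holds whole-number counts of 55536 Ensembl genes, and these IDs are exactly those of GENCODE M21 (GRCm38), from which exons and coordinates were taken. The other deposited table gives a signal, namely each count over a constant of its library, and served only for its symbols.

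Groups came from the titles, which alone mark replicates as separate samples, so any p reflects only how far these samples vary. Counts were tested with edgeR 4.0.16 in R 4.3.3: TMM, filterByExpr (minimum count 10), legacy glmQLFit and glmQLFTest with the group as the term, and Benjamini-Hochberg adjustment at 0.05. The biological coefficient of variation was 34.9%. The SE was derived from the fold change and F. DESeq2 1.42.0, limma 3.58.1 (voom), other scalings and filters, a hepatocyte covariate and leaving out each library were alternatives. The edgeR fit was also run on simulated counts in which each gene varied on its own. These lack the hepatocyte difference that many genes share here, so nothing is concluded from them. Intervals and floors cover counting error only. Exon bases shared with another gene, and 50-base stretches found in another gene, were counted in the annotation, and levels per kilobase use exon bases of no other gene. Promoters are from RefSeq.

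Members and gene lists were chosen with earlier results of these data known. Values in all libraries are given for the members with the highest mean CPM (3 in Ugt1 and Ugt3, 6 in Ugt2 and Sult), the one with the smallest p in each direction of each family, and always Ugt1a1, Ugt1a6a, Ugt1a9, Ugt2b38, Sult1a1, Sult1e1, Sult2a1 and Sult2b1. Ugt2b37 was added after its values were seen. Of pathway lists, the gene with the smallest p in each direction and others of unadjusted p under 0.05 were named, with Ugdh, Papss2, Abcc2, Abcc3, Nr1i2 and Nr1i3 in every case.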

Additional observations from a re-analysis of the deposited data

How the results depend on the processing

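The median log2 fold change of each family stayed positive under every alternative run. Among all genes, 0 were called by the edgeR quasi-likelihood test and by limma-voom, 1 without the filter on low counts and 626 by DESeq2 (550 higher, 76 lower in TSDP). DESeq2 also called 5 members, all higher in TSDP, against a background of 3.1%: Ugt2b38 (adjusted p = 1.7e-05), Sult5a1 (0.00034), Sult1b1 (0.0045), Ugt2b37 (0.0107) and Sult2a8 (0.0254). Of the pathway genes it called 4, where edgeR called 0. Members at an unadjusted p under 0.05 numbered 14, but 7 with a minimum count of 50 and 7 with the hepatocyte covariate, and between 5 and 21 with 1 library left out: 5 without Control 5, 7 without TSDP 1 and 5 without TSDP 2. With the covariate the median log2 fold change was 0.42 for Ugt1, 0.43 for Ugt3 and 0.17 for Sult. With 1 library left out the medians ran from 1.68 to 3.41 for Ugt1, 2.85 to 4.64 for Ugt2, 2.27 to 4.83 for Ugt3 and 1.40 to 3.31 for Sult, the last without Control 4. The medians by limma-voom were 2.95 for Ugt1, 5.09 for Ugt2, 4.56 for Ugt3 and 2.77 for Sult, against 2.24, 3.43, 2.91 and 1.95 by edgeR. As a mean of log2 CPM over members, the family difference was 1.53 for Ugt1, 4.23 for Ugt2, 4.22 for Ugt3 and 1.56 for Sult, against 1.54, 3.55, 2.69 and 3.02 for the log2 ratio of means. With 1 library left out, the log2 fold change of Ugt1a7c ran from -0.81 to 0.089 and that of Sult6b1 from -0.35 to 0.16, with a change of sign without Control 4 for both and without TSDP 1 (0.01) for Ugt1a7c. The cause of these shifts was not tested. No paired analysis was possible because the groups share only 1 replicate number. Genes with few counts, such as Ugt2b38, Sult5a1 and Ugt1a9, have wide counting error in Control libraries.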
